A study of Mus musculus with 72 samples.

Results

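Transcripts of 9 genes of transsulfuration and glutathione synthesis (Cbs, Cth, Gclc, Gclm, Gss, Gsr, Cdo1, Csad and Slc7a11) were followed in mouse liver and in the suprachiasmatic nucleus (SCN), the brain's circadian pacemaker. They were taken by symbol, as a pathway chosen with earlier results of these data known, and all 9 were found among the 22823 genes of the liver table and the 15759 genes of the SCN table. The mice, of the C57BL/6 strain and 8 to 12 weeks old when bought, were housed singly and ate freely for 11 days, either food lacking methionine and choline (MCD) or an isocaloric control. Light and dark alternated for the first 10 days, and on the last day, in constant darkness, tissue was taken at 6 circadian times (CT), CT0 being the first and CT20 the last, with 4 h between. A group (tissue, diet, time) had 3 libraries, labelled as 2 males and 1 female, and the 24 groups made 36 libraries per tissue and 18 per diet. The protocol text names male mice alone, and the sample labels were followed here. Neither group carried a transgene or a drug, and liver came from the left lobe and SCN from laser-dissected brain sections.

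Transsulfuration moves the sulfur of homocysteine, made from methionine, into cysteine: cystathionine beta-synthase (Cbs) joins homocysteine to serine, and cystathionine gamma-lyase (Cth) releases cysteine. Cysteine can also be imported as cystine through the exchanger whose light chain is Slc7a11. It is built into glutathione by glutamate-cysteine ligase, with its catalytic subunit Gclc and its modifier Gclm, and by glutathione synthetase (Gss), while glutathione reductase (Gsr) returns oxidised glutathione to the reduced form. Cysteine dioxygenase (Cdo1) and cysteine sulfinate decarboxylase (Csad) lead cysteine towards taurine. The liver is known as a main site of both routes, and hepatocytes are known to hold very little Slc7a11 under normal feeding.

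Gene counts summed to 52.6 M to 86.7 M per liver library and 23.3 M to 79.8 M per SCN library. Levels are given as CPM (counts per 1e6 counted reads) scaled between libraries by edgeR's TMM factors, and changes as log2 of MCD over control. In liver, 1 library of a control male at CT8, called library a because its column name carries no number of its own, lay on the MCD side for several of these genes, and results that rest on it are given with and without it. Liver libraries also fell into kinds by the mitochondrial transcript mt-Nd6: 21 libraries (8 control, 13 MCD) held 41.6 to 119 CPM and 15 (10 control, 5 MCD) held 414 to 925 CPM. Scaling by library totals alone moved the median liver gene's diet difference from 0.017 to 0.272 log2, so that small diet differences depend on the scaling. Of the 6 hepatocyte markers, all were in the liver table, and 7 of 8 SCN neuron markers were not. The SCN table held all 8 SCN neuron markers and lacked 4 of the 6 hepatocyte markers (Apoa1, Ttr, Tat and Serpina1c).

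Promoter sequence was at hand for 5 of the 9 genes, and the 3 shown hold a match to a motif of a regulator that is known to act on this pathway or on daily rhythms. Each run is the 250 bases before the annotated start, 5′ to 3′ in the direction of transcription, from RefSeq on build GRCm38.p6: chr3:50443614-50443863 (minus strand) for Slc7a11, chr3:122245307-122245556 (plus strand) for Gclm and chr17:31637206-31637455 (minus strand) for Cbs. Capitals mark the matches.
Slc7a11: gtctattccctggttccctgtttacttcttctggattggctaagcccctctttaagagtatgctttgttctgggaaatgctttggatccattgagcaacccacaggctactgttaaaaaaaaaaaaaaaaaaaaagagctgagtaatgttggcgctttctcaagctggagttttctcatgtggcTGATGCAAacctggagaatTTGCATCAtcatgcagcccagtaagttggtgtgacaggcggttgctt
Gclm: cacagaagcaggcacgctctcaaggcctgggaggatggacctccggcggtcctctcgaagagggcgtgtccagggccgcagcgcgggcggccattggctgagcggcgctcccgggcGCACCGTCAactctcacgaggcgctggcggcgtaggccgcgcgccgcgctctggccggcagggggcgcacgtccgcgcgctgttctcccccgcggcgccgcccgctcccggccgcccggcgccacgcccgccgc
Cbs: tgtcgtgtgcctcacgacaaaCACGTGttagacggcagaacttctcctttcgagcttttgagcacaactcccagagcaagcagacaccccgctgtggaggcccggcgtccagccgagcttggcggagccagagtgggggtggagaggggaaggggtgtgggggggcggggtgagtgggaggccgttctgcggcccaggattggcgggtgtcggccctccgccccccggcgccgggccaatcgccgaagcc
The core of the amino acid response element, TGATGNAA on either strand, was matched 2 times in Slc7a11, at bases 66 to 59 and 47 to 40 before the start. The core of the antioxidant response element, TGACNNNGC on either strand, was matched 1 time in Gclm, on the minus strand at bases 134 to 126. The E-box CACGTG was matched 1 time in Cbs, at bases 229 to 224. Of 32851 promoter windows of this length, 3.45% held TGATGNAA, 10.2% TGACNNNGC and 6.02% CACGTG. No match to the 3 motifs was in these windows of Gss and Csad. A match describes the letters alone and does not show binding.

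In liver, Slc7a11 of cystine import, Gclc and Gss of glutathione assembly and Gsr of its recycling were higher on MCD, while Cbs and Cdo1 were lower and Cth, Gclm and Csad did not pass. Averaged over the day, 6 of the 9 genes changed at an adjusted p under 0.05 (edgeR quasi-likelihood test, Benjamini-Hochberg over all 20249 genes tested): Slc7a11, Gss, Gclc and Gsr rose, and Cbs and Cdo1 fell. The background was high, since 46.6% of all genes tested passed in this comparison, 25.3% upwards and 21.2% downwards. The median diet difference of the 9 genes was 0.23 log2, against 0.017 for all genes. The range ran from Slc7a11 at 4.83 ± 0.60 (SE) to Cdo1 at -0.27 ± 0.11. Since tissue was taken whole, fewer cells of a type and less RNA per cell cannot be told apart in these values.

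**Figure D1:**
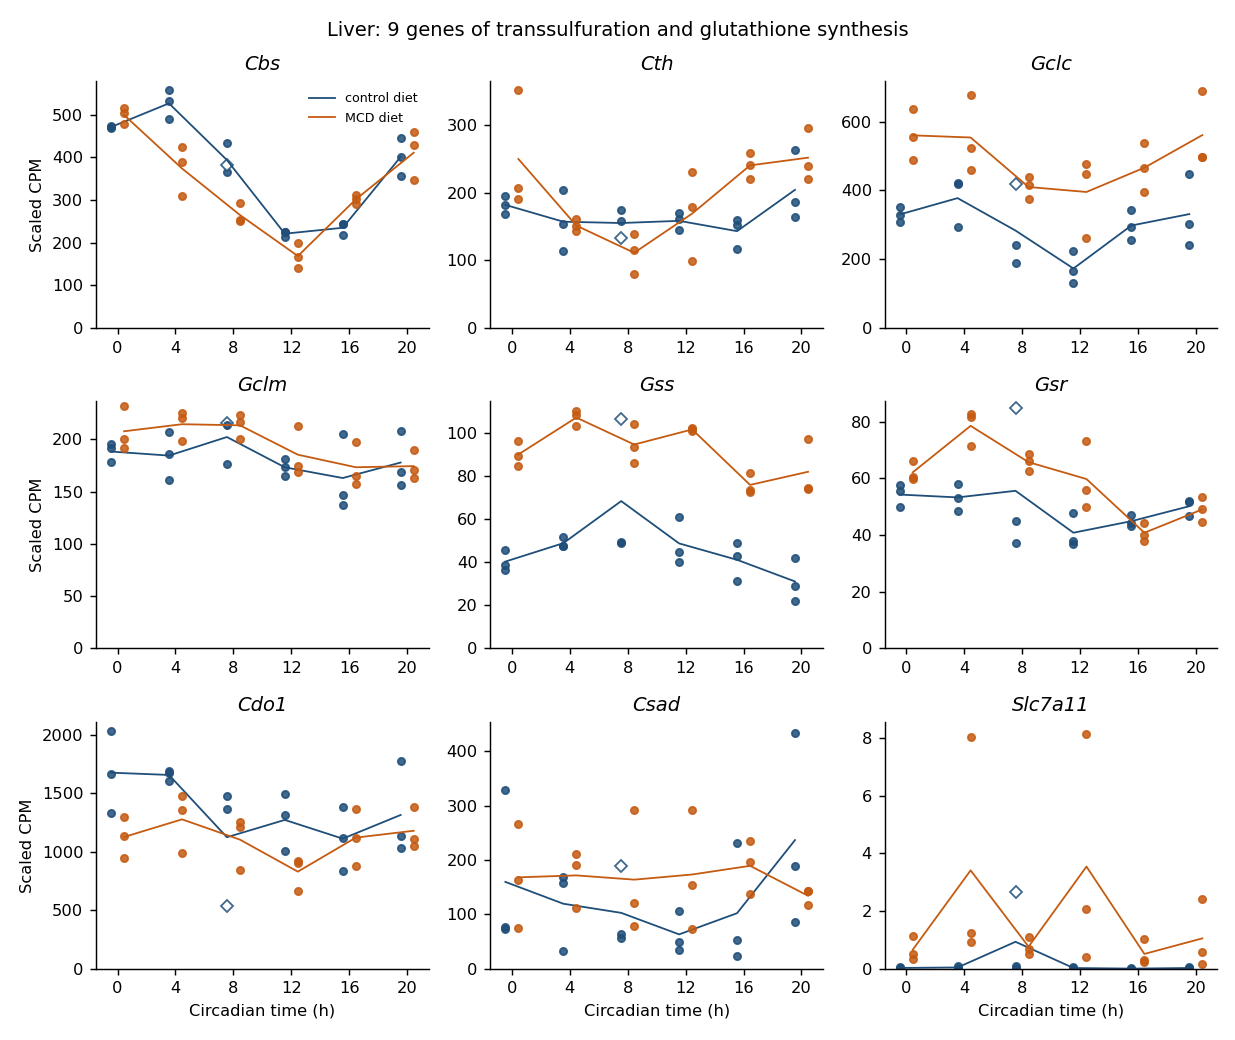
Scaled CPM (y axis) of the 9 genes in each of the 36 liver libraries against circadian time (x axis, h), with lines through the means of 3 libraries per group and library a as an open diamond. The MCD points of Gss lie at 72.7 CPM and above, over every control point but library a, and the MCD points of Cbs lie below the control points at CT4, CT8 and CT12.

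**Figure D2:**
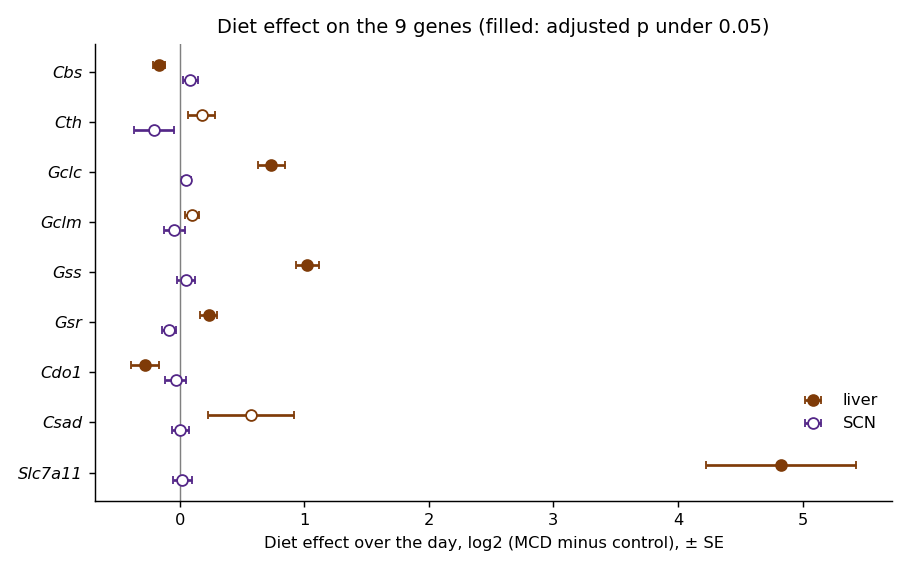
Diet effect over the day (x axis, log2 of MCD over control, with SE from edgeR) for each gene in liver and SCN (18 libraries per diet and tissue), filled where the adjusted p was under 0.05. Filled points occur in liver alone, with Slc7a11 at 4.83 and Gss at 1.03.

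Among the transsulfuration enzymes, Cbs fell on MCD at CT4, CT8 and CT12 and at no other time. On control its levels were 532, 558 and 490 CPM at CT4, against 310, 388 and 423 CPM on MCD. At CT8 they were 365, 381 and 434 CPM against 252, 292 and 251, and at CT12 224, 213 and 225 CPM against 140, 199 and 166. With 3 libraries a diet, the diets did not overlap at these 3 times, and the share of all genes that did so was not counted. At CT16 the order turned, with 218, 244 and 242 CPM on control and 291, 301 and 312 on MCD. The fitted differences at CT4, CT8 and CT12 were -0.50 ± 0.12, -0.57 ± 0.12 and -0.39 ± 0.12 log2, and all 3 passed (edgeR adjusted p = 0.00619, 0.0168 and 0.0319), while 0.36 ± 0.12 at CT16 did not (adjusted p = 0.0526). The Cbs calls were lost without MCD CT4 library 1 at CT4 (-0.38 log2), without control library b or MCD library 1 or 3 at CT8 (-0.49, -0.54 and -0.53) and without any control library or MCD library 1 or 3 at CT12 (-0.41 to -0.27). Under 12 other alternatives, which include other scalings, the calls were lost in part of the fits at each of these times. The differences there ran from -0.65 to -0.20 log2 at CT4, -0.67 to -0.42 at CT8 and -0.56 to -0.01 at CT12. Over the 6 times, 15 of the 54 pairs of gene and time passed in liver: 1 of 9 at CT0 (background 12.6%), 4 at CT4 (18.2%), 1 at CT8 (1.3%), 5 at CT12 (15.2%), 2 at CT16 (12.5%) and 2 at CT20 (11.3%).

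Averaged over the day, Cbs held 375 ± 119 CPM on control and 336 ± 114 CPM on MCD (SD, n = 18 each), with a fitted difference of -0.16 ± 0.05 log2 (edgeR adjusted p = 0.00864). Without the libraries numbered 1 it was -0.10 log2 and did not pass (adjusted p = 0.236). With library totals as the only scaling, its sign turned, to 0.09 log2 (adjusted p = 0.154). Within the kinds of liver library Cbs gave -0.12 log2 in the low kind (edgeR adjusted p = 0.41) and -0.38 log2 in the high kind (adjusted p = 0.0402). Cth, the next enzyme, held 114 to 262 CPM on control (median 162) and 79.3 to 351 CPM on MCD (median 199). Its ranges overlapped widely, and its mean difference of 0.18 ± 0.10 log2 did not pass (edgeR adjusted p = 0.174). With library totals alone Cth came to 0.44 log2 and passed (adjusted p = 0.00101). The largest difference of Cth at a single time, 0.75 ± 0.26 log2 at CT16, came from 117, 159 and 152 CPM on control, against 220, 241 and 259 CPM with MCD, and missed the threshold (edgeR adjusted p = 0.0553). The ratio of Cth to Cbs counts within a library, added after the main results were seen, averaged 0.484 ± 0.155 on control and 0.620 ± 0.242 on MCD (two-sided permutation p = 0.0641, adjusted over the 4 ratios 0.128). For all 4 ratios the permutation shuffled diet over all libraries of a tissue, without regard to time or sex. Variation over the day therefore stays in its spread.

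Slc7a11 was near the floor of detection in control liver and was counted in every MCD library. On control, 17 libraries held 0 to 0.107 CPM, 6 of them with no count, and library a held 2.67 CPM. The 18 MCD libraries ran from 0.182 to 8.16 CPM with a median of 0.819. Without library a the diets did not overlap, and summed counts were 30 in 17 control libraries and 2368 in 18 MCD libraries. The highest MCD levels were single libraries at CT4 and CT12, with 8.05, 1.25 and 0.944 CPM at CT4 and 2.07, 8.16 and 0.406 CPM at CT12. Without library a, 1.68% of all liver genes tested had diets that did not overlap, 0.691% with MCD higher. With all libraries, 0.306% did, and none of the 9 genes was among them.

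The fitted difference of Slc7a11 was 4.83 ± 0.60 log2 (edgeR adjusted p = 3.78e-07), and 5.34 log2 without library a. At CT8 the fit gave 0.07 ± 0.96 log2 with library a and 3.36 log2 without it. Differences passed at CT4, CT12, CT16 and CT20 with edgeR, with adjusted p of 0.00388, 0.00434, 0.0177 and 0.0308, and at none of the 6 times with limma voom (adjusted p from 0.0836 to 0.903). At CT0 the difference of 4.34 log2 missed the threshold (adjusted p = 0.0519) and passed in 8 of 36 fits with 1 library left out, among them that without library a (4.30 log2, adjusted p = 0.0211). The calls of Slc7a11 at CT16 and CT20 were lost without any control library of that time, at folds that were about as large or larger (6.05 to 8.53 log2 at CT16 and 4.73 to 6.15 log2 at CT20), and without MCD CT16 library 3 (4.52 log2) or MCD CT20 library 1 (3.91 log2). At its counts the size of the ratio is poorly fixed, as a control group held as little as 1 count (CT16). Even on MCD, Slc7a11 remained the lowest of the 9 genes in liver per length, at 0.119 CPM per kb of exon.

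Markers of macrophages, cells that are known to carry Slc7a11 when activated, moved with the diet in the same libraries. Of the 7 markers measured, 6 were higher on MCD with edgeR, against 25.3% of all liver genes, with a median of 0.43 log2 (0.017 for all genes). Their summed level ran from 186 to 421 CPM on control (median 241) and from 243 to 483 CPM on MCD (median 340). Trem2 went from 1.08 ± 1.89 to 4.77 ± 4.79 CPM and Marco from 6.90 ± 11.3 to 24.2 ± 12.7 CPM. Of the 6 hepatocyte markers, 4 were lower on MCD, against 21.2% of all liver genes, and the other 2 did not pass, with a median of -0.31 log2. Their summed level ran from 79307 to 119426 CPM on control (median 98622) and from 55694 to 120034 CPM on MCD (median 98374). Other cell type lists were counted as well, beside the same 25.3% higher and 21.2% lower of all liver genes. With edgeR, 2 of 6 stellate cell markers were called, both higher. Of 5 endothelium markers 2 were higher and 2 lower, with summed medians of 90.1 CPM on control and 151 CPM on MCD. Of 5 neutrophil and lymphocyte markers, all under a mean of 1 CPM, 2 were higher, and of 5 cholangiocyte markers 1 was. The part of any of these cells in the Slc7a11 result was not tested.

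Gclc, the catalytic subunit of the ligase that sets the pace of glutathione synthesis, rose on MCD, while its partner Gclm did not pass. Gclc ran from 131 to 449 CPM on control (median 298) and from 262 to 690 CPM on MCD (median 483), so that the ranges overlapped. Its fitted difference was 0.74 ± 0.11 log2 (edgeR adjusted p = 3.83e-06), and it was higher at all 6 times. At CT12, where control was lowest, levels of 131, 166 and 222 CPM stood against 447, 262 and 477 CPM on MCD, a difference of 1.20 ± 0.27 log2 (edgeR adjusted p = 0.00419). No other single time passed for Gclc with all libraries, and CT0, CT8 and CT20 passed without library a (0.75, 0.93 and 0.73 log2). Gclm ran from 137 to 216 CPM on control and from 157 to 232 CPM on MCD, with a difference of 0.10 ± 0.06 log2 (edgeR adjusted p = 0.145). With library totals alone Gclm came to 0.35 log2 and passed.

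The ratio of the subunits' counts within a library does not depend on the scaling between libraries. It averaged 1.64 ± 0.435 Gclc counts per Gclm count on control and 2.53 ± 0.516 on MCD (liver, 18 libraries a diet, SD; permutation test, two-sided, p = 1e-05, the smallest the permutations allow, adjusted over the 4 ratios 4e-05). At CT12 the control libraries held 0.792, 0.956 and 1.23 and the MCD libraries 2.56, 1.56 and 2.24. At CT8 library a held 1.94, and the other controls 1.07 and 1.13, against 1.86, 1.74 and 2.19 on MCD. All MCD libraries were above all controls of the same time, except at CT8, where library a lay above 2 of the 3. In SCN the ratio was 0.829 ± 0.204 on control and 0.872 ± 0.170 on MCD (permutation p = 0.431). The genes differ in length, so that the ratio compares libraries and not the amounts of the subunits. It was added after the main results were seen.

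**Figure D3:**
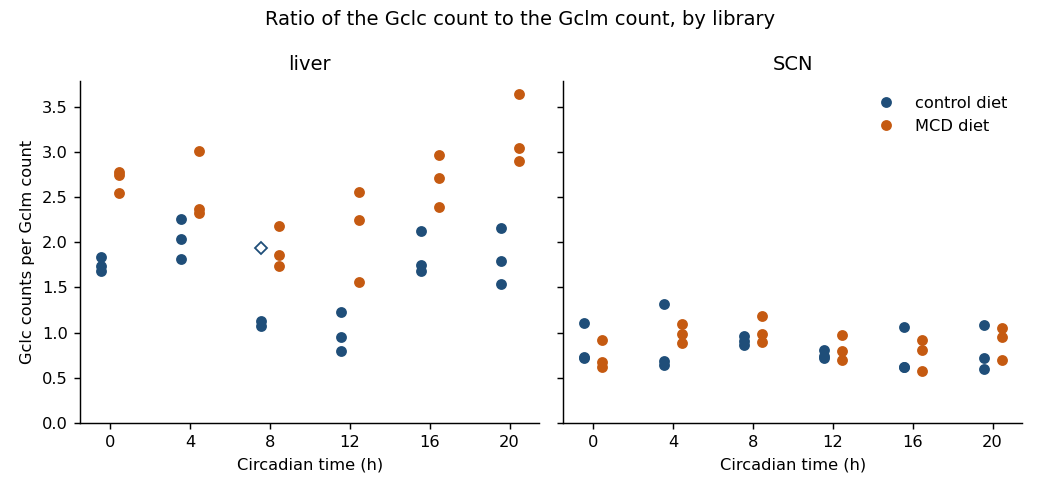
Gclc counts per Gclm count (y axis) in each library against circadian time (x axis, h) in liver and SCN, with library a as an open diamond. In liver the MCD libraries run from 1.56 to 3.65 and the control libraries from 0.792 to 2.26, while in SCN both diets lie between 0.575 and 1.32.

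Gss, which adds glycine in the last step of glutathione synthesis, rose on MCD, with the MCD mean above the control mean at all 6 times. It ran from 22.2 to 107 CPM on control (median 45.3) and from 72.7 to 110 CPM on MCD (median 95.0). Without library a, the highest control library held 61.1 CPM, below every MCD library. The difference was 1.03 ± 0.09 log2 (edgeR adjusted p = 1.75e-09), and 1.02 log2 within each kind of liver library, where Gclc gave 0.79 and 0.58 log2 and Slc7a11 4.25 and 5.56 log2 (low and high kind), all of which passed. At single times it passed at CT0, CT4, CT12, CT16 and CT20, with 0.90 to 1.42 log2 (edgeR adjusted p from 0.000259 to 0.00952), and the CT16 call was lost without control or MCD library 3 (0.75 and 0.78 log2). At CT8 it was 0.48 ± 0.22 log2 with library a and 0.93 log2 without it, where it passed (edgeR adjusted p = 0.00559). The control levels at CT20 were 42.1, 29.0 and 22.2 CPM, against 74.1, 74.7 and 97.5 CPM on MCD.

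Exons of Gss overlap those of Acss2, an acetyl-CoA synthetase on the opposite strand, in GENCODE M21 (build GRCm38), and whether counting used the strand is not given in the sources used here. Acss2 fell from 473 ± 239 to 80.3 ± 28.3 CPM (log2 -2.43 ± 0.22, edgeR adjusted p = 2.79e-09), opposite in direction to Gss. Csad overlaps exons of Zfp740 in the same way, and Zfp740 held 36.1 ± 5.60 CPM on control and 33.2 ± 5.35 CPM on MCD in liver (edgeR adjusted p = 0.152). The values of Gss and Csad are uncertain to the extent that such reads were shared.

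Gsr, which recycles oxidised glutathione, rose by a smaller amount, and of single times it passed at CT4 and CT12, and at CT8 without library a (0.66 log2, edgeR adjusted p = 0.0019; 0.26 log2 with it). Its mean went from 49.9 ± 10.8 to 59.4 ± 13.5 CPM (log2 0.23 ± 0.07, edgeR adjusted p = 0.00812). Without the libraries numbered 1 or 3 Gsr gave 0.20 and 0.16 log2 and did not pass (adjusted p = 0.155 and 0.15). At CT4 the libraries held 53.1, 58.1 and 48.7 CPM on control, against 82.8, 81.6 and 71.3 CPM with MCD (log2 0.56 ± 0.17, edgeR adjusted p = 0.0252). Both calls were lost without any of 4 libraries, for Gsr at CT4 controls 1, 2 and 3 and MCD 1 (0.54 to 0.60 log2) and at CT12 controls 1 and 3 and MCD 1 and 2 (0.40 to 0.60 log2). At CT16 they held 44.2, 43.3 and 47.2 CPM and 44.4, 37.9 and 40.2 CPM, which overlapped. Within the kinds of liver library the mean difference was 0.13 log2 (low mt-Nd6) and 0.33 log2 (high mt-Nd6), neither of which passed (edgeR adjusted p = 0.436 and 0.0502). Library a, of the low kind, held 84.8 CPM of Gsr, more than every other liver library.

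In the branch to taurine, Cdo1, the highest of the 9 genes per length in liver, fell on MCD, close to the threshold. It ran from 535 to 2035 CPM on control (median 1373) and from 663 to 1480 CPM on MCD (median 1113), and library a was the lowest. The difference of -0.27 ± 0.11 log2 passed narrowly (edgeR adjusted p = 0.0473). It lost its call when any 1 of 20 of the 36 libraries was left out (-0.28 to -0.23 log2), with limma voom (adjusted p = 0.0586), with no filter (0.0564), with a term for the kind of library (0.0854) and with library totals alone (-0.02 log2). Without the libraries numbered 3, the females, Cdo1 stood at -0.10 log2 (edgeR adjusted p = 0.627), and without those numbered 1 at -0.31 log2 (0.15). Without library a it was -0.34 log2 (edgeR adjusted p = 0.00308). Within the low and high kinds it was -0.26 and -0.34 log2 and passed in neither. At no single time did Cdo1 pass. Csad, the next enzyme, varied widely on control, from 23.8 to 433 CPM, and on MCD from 73.7 to 292 CPM, and its mean difference of 0.57 ± 0.35 log2 did not pass (edgeR adjusted p = 0.183). Csad passed with library totals alone (0.82 log2, adjusted p = 0.0485) and without the libraries numbered 2 (1.20 log2, adjusted p = 0.0239), and stood at -0.23 log2 without those numbered 3, which are the females. Within the low and high kinds Csad gave 0.90 and -0.41 log2, neither of which passed.

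The diet effect on Csad differed between the sexes. In every group the female is the library numbered 3 and the males are the other 2, so sex and replicate number cannot be told apart. The 6 control females held 23.8 to 86.5 CPM (mean 51.9 ± 25.8, SD) and the 6 MCD females 137 to 292 CPM (mean 224 ± 71.4), without overlap. The 12 males held 48.7 to 433 CPM on control (mean 170 ± 118) and 73.7 to 235 CPM on MCD (mean 138 ± 51.9), overlapping throughout. In a model with a term for sex by diet, the diet effect was 2.24 ± 0.43 log2 in females and -0.21 ± 0.29 in males, a difference of 2.45 ± 0.52 log2 (edgeR adjusted p = 0.0128). Of all liver genes tested, 1.77% passed that test, and Csad was the only one of the 9. On control, Csad was lower in females by 1.70 ± 0.39 log2 (edgeR adjusted p = 0.00484, background 9.87%), and on MCD it stood at 0.75 ± 0.36 log2 higher in females, which did not pass (adjusted p = 0.387, background 2.23%). The difference held with each of 13 libraries left out in turn, which included all 12 females, at 2.27 to 2.68 log2.

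**Figure D4:**
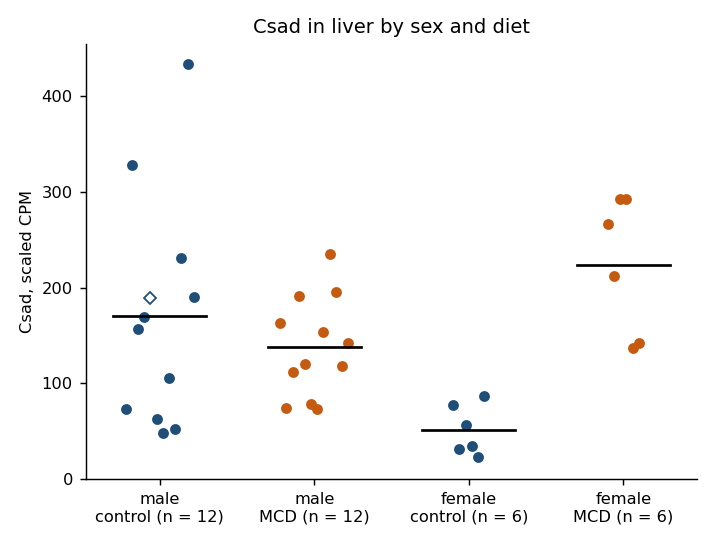
Csad in liver (y axis, scaled CPM) by sex and diet, 1 point per library, with bars at the means and library a as an open diamond. The 6 control females lie at 86.5 CPM and below and the 6 MCD females at 137 CPM and above, while the males of both diets overlap.

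Females without overlap between diets, 6 against 6, were also seen for Gclc, Gss and Slc7a11 (higher on MCD) and for Cdo1 (lower), so for 5 of the 9 genes, against a background of 11% of all liver genes (5.46% higher, 5.51% lower). For these 4 genes the difference between the sexes did not pass. For Gclc the diet effect was 1.08 ± 0.17 log2 in females and 0.57 ± 0.12 in males (edgeR adjusted p of the difference 0.279), and for Cdo1 it was -0.65 ± 0.18 and -0.09 ± 0.12 log2 (adjusted p of the difference 0.227). Gclm gave 0.27 ± 0.09 log2 in females and 0.02 ± 0.06 in males, and Gsr 0.36 ± 0.12 and 0.17 ± 0.09. Cbs gave -0.11 ± 0.09 log2 in females and -0.19 ± 0.06 in males. For none of Gclm, Gsr and Cbs did the difference between the sexes pass. The mean difference between females and males over both diets passed for 0 of the 9 genes in liver with edgeR (background 9.44%). By limma voom it passed for 1, Slc7a11, and 1 of the 9 had an unadjusted p under 0.05 with edgeR, which 4314 of the 20249 genes had.

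Across the circadian day in control liver, Cbs, Gclc and Gss passed the test for a 24 h rhythm, 3 of 9 against a background of 17.8%. Cbs had the widest fitted range from trough to peak of these, 1.30 ± 0.10 log2, with a peak at CT2.0 ± 0.3 h (edgeR adjusted p = 7.02e-09). Gclc had a range of 0.82 ± 0.22 log2 and a peak at CT0.3 ± 1.0 h (adjusted p = 0.0255), and lost its call without control CT0 library 1 or control CT12 library 1 or 2 (0.78, 0.71 and 0.81 log2). It also lost it without all libraries numbered 1 (0.53 log2, adjusted p = 0.522) or 2 (0.85 log2, adjusted p = 0.209). Gss had a range of 0.94 ± 0.18 log2 with a peak at CT8.0 ± 0.7 h (adjusted p = 0.0022), which fell to 0.63 log2 without library a (adjusted p = 0.0144), and Gss did not pass without the libraries numbered 2 (0.88 log2, adjusted p = 0.118). Without library a, Gsr passed too, at 0.45 log2 (adjusted p = 0.00384).

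On MCD, 4 of 9 passed against a background of 28.2%: Cbs, Cth, Gclm and Gsr. Cbs kept a wide range of 1.37 ± 0.10 log2, with its peak at CT23.5 ± 0.3 h (edgeR adjusted p = 2.36e-09). Cth had a range of 1.20 ± 0.21 log2 and a peak at CT19.8 ± 0.7 h (adjusted p = 0.000431), with group levels from 115, 139 and 79.3 CPM at CT8 to 220, 295 and 239 CPM at CT20. Gsr had 0.81 ± 0.14 log2 with a peak at CT5.0 ± 0.7 h (adjusted p = 0.000368), and Gclm 0.36 ± 0.11 log2 at CT4.8 ± 1.2 h (adjusted p = 0.0424). The Gclm call was lost when any 1 of 10 of the 36 libraries was left out (0.34 to 0.37 log2) and without any of the 3 numbers (0.32 to 0.44 log2). The Gsr call was lost without the libraries numbered 2 (0.72 log2, adjusted p = 0.0699).

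The rhythm itself differed between the diets for Cbs (0.88 ± 0.14 log2, edgeR adjusted p = 0.00323), the only call among the 9, against a background of 4.87%. Without the libraries numbered 1 or 2 the Cbs value was 0.83 and 0.90 log2 and did not pass (adjusted p = 0.146 and 0.125). Its fitted peaks lay at CT2.0 on control and CT23.5 on MCD. For Cth the difference of rhythms was 0.94 ± 0.30 log2 and did not pass (edgeR adjusted p = 0.126), so that the rhythm called on MCD alone is not shown to differ from control. Gsr gave 0.57 ± 0.20 log2 with all libraries (adjusted p = 0.181) and 0.85 log2 without library a, where it passed (adjusted p = 0.00218).

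In SCN the 9 genes showed no change with diet that passed. With edgeR, 0 of 9 were called, against a background of 0.0635% of 15759 genes, and 0 had an unadjusted p under 0.05, which 746 of the 15759 genes had. DESeq2 and limma voom called 0 as well. The fitted differences ran from -0.20 ± 0.16 log2 for Cth to 0.09 ± 0.06 log2 for Cbs, with a median of 0.007. Cth, the lowest of the 9 per length there, ran from 1.83 to 6.35 CPM on control and from 1.17 to 4.08 CPM on MCD. For Gss, control libraries held 13.2 to 28.2 CPM (median 16.7) and MCD libraries 13.0 to 23.2 CPM (median 18.4). Slc7a11 held 14.6 to 40.9 CPM on control (median 24.3) and 15.5 to 42.5 CPM on MCD (median 24.1). No gene of the 9 separated the diets, and 0% of all SCN genes did. At single times 0 of 9 passed at each of the 6 times with edgeR (background 0% at CT8 and CT12, 0.0444% at CT4 and 0.00635% at CT0, CT16 and CT20), and 0 to 2 of 9 had an unadjusted p under 0.05, which 282 to 1016 of the 15759 genes had.

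Some of the genes did vary over the day in SCN. On control Gclc, Gss and Slc7a11 passed (3 of 9, background 15.1%), and on MCD Gss, Csad and Slc7a11 (3 of 9, background 16.1%). Slc7a11 on control held 23.0, 14.6 and 18.9 CPM at CT0 and 40.9, 32.0 and 36.6 CPM at CT16, the times of its lowest and highest means. Its fitted peak was CT12.9 ± 1.0 h on control and CT13.9 ± 0.9 h on MCD, with ranges of 0.60 ± 0.15 and 0.65 ± 0.15 log2 (edgeR adjusted p = 0.0198 and 0.00938). Gss peaked at CT20.2 ± 0.8 h on control and CT20.7 ± 1.1 h on MCD, with ranges of 0.70 ± 0.15 and 0.50 ± 0.15 log2 (adjusted p = 0.00416 and 0.0461). In control liver its fitted peak was CT8.0. The peak times of the tissues were not compared by a test. Without the libraries numbered 1, or without those numbered 2, Gclc, Gss and Slc7a11 each lost their call on control (edgeR adjusted p from 0.0535 to 0.2), and Slc7a11 did so without those numbered 3 as well (0.0826). On MCD, Slc7a11 lost its call without the libraries numbered 2 or 3, and Gss without those numbered 1 or 2.

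Gclc in control SCN held 50.1, 47.5 and 51.6 CPM at CT0 and 66.0, 63.2 and 81.5 CPM at CT4, and its fitted range was 0.31 ± 0.08 log2 with a peak at CT8.4 ± 1.0 h (edgeR adjusted p = 0.0276). Csad on MCD had a range of 0.47 ± 0.13 log2 with a peak at CT22.3 ± 1.1 h (edgeR adjusted p = 0.037), which Csad lost without the libraries numbered 2 or 3 and with library totals alone (adjusted p = 0.0511). The rhythm difference between diets passed for 0 of the 9 genes in SCN with edgeR, DESeq2 and limma voom (background 0.0127%), and 0 had an unadjusted p under 0.05, which 596 of the 15759 genes had. Sex passed for 0 with edgeR (background 9.89%), where Cbs was nearest with 0.18 ± 0.06 log2 higher in females (adjusted p = 0.0641) and alone had an unadjusted p under 0.05, which 4041 of the 15759 genes had; DESeq2 called Cbs and limma voom called 0.

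**Figure D5:**
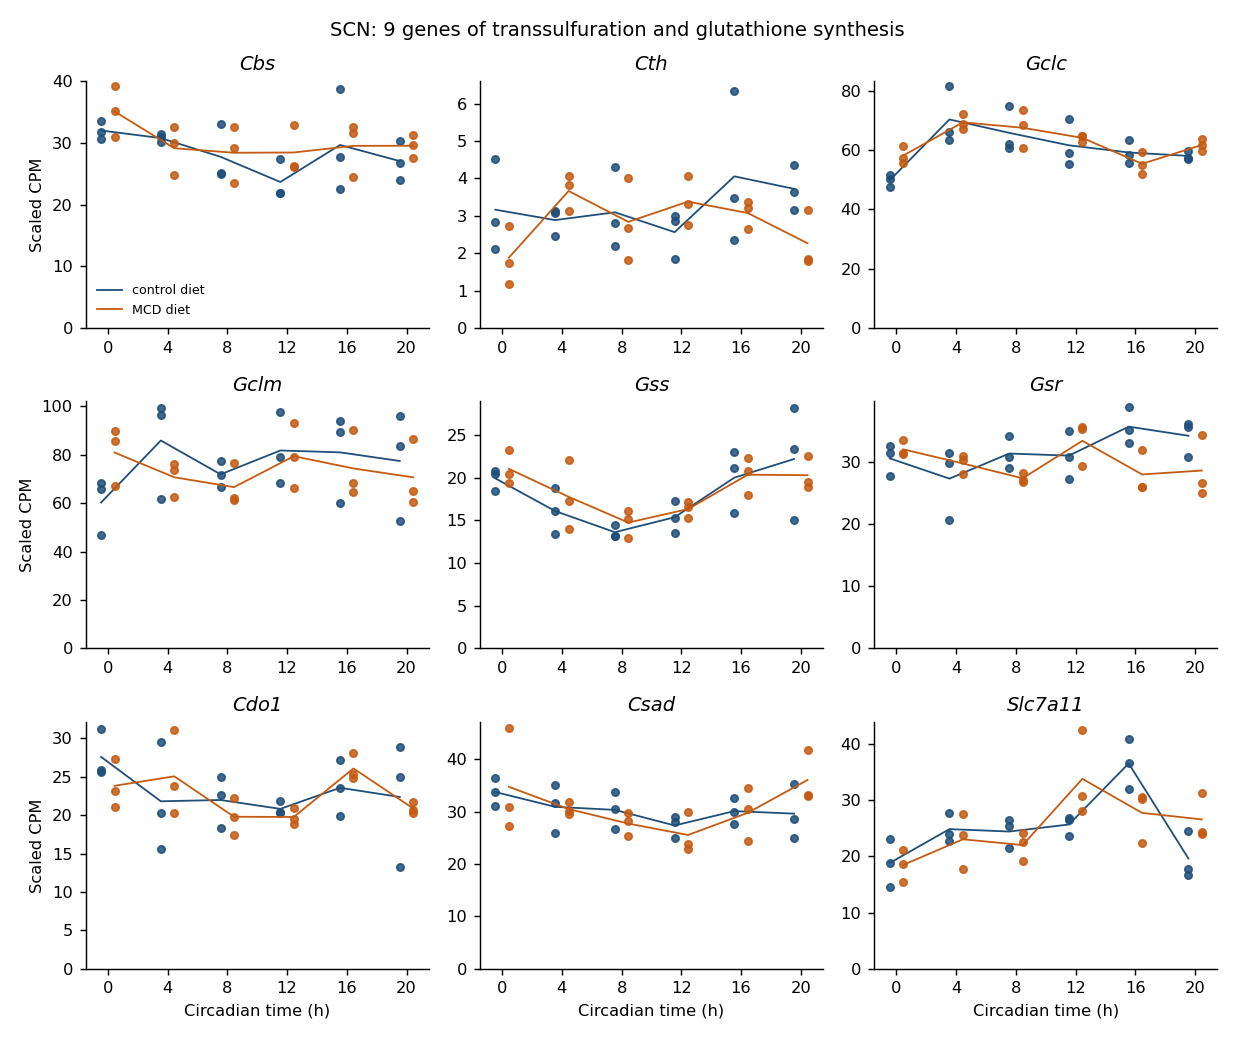
Scaled CPM (y axis) of the 9 genes in each of the 36 SCN libraries against circadian time (x axis, h), with lines through the means of 3 libraries per group. The diets overlap for all 9 genes, and Slc7a11 on control is highest at CT16, at 32.0 to 40.9 CPM.

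The diet effect itself differed between the tissues for 5 of the 9 genes in a model of all 72 libraries, against a background of 34.7% of 14491 genes. Liver minus SCN was 4.81 ± 0.56 log2 for Slc7a11, 0.97 ± 0.12 for Gss, 0.68 ± 0.12 for Gclc, 0.32 ± 0.09 for Gsr and -0.25 ± 0.08 for Cbs (edgeR adjusted p from 2.81e-09 to 0.0101). With library totals alone, 6 passed: Cbs lost its call (-0.10 log2), and Cth (0.53 log2) and Gclm (0.30 log2) gained one. The labels do not say which liver and SCN libraries came from the same mouse, and the model treats them as independent.

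All 9 genes differed in level between control liver and control SCN (background 90.4%), with 8 higher in liver (background 44.1%) and 1 lower (46.3%). The differences were 6.80 ± 0.14 log2 for Cdo1, 6.70 ± 0.17 for Cth, 4.68 ± 0.07 for Cbs, 3.22 ± 0.10 for Gclc, 3.04 ± 0.27 for Csad, 2.35 ± 0.10 for Gss, 2.20 ± 0.08 for Gclm and 1.64 ± 0.07 for Gsr. Slc7a11 was lower in liver, at -7.72 ± 0.46 log2, or -8.35 without library a. These sizes rest on the scaling between unlike tissues: with library totals alone they were 6.09 log2 for Cdo1, 6.00 for Cth, 3.97 for Cbs, 2.52 for Gclc, 2.35 for Csad, 1.65 for Gss, 1.49 for Gclm, 0.94 for Gsr and -8.37 for Slc7a11, and all 9 passed.

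Within a tissue, levels were compared per kb of exon (exon lengths from GENCODE M21). In control liver the order was Cdo1 (827 ± 225 CPM per kb, SD, n = 18), Gclc (79.3 ± 24.5), Cth (59.6 ± 12.1), Cbs (50.0 ± 15.9), Csad (34.1 ± 29.1), Gclm (28.85 ± 3.70), Gsr (18.1 ± 3.93), Gss (7.86 ± 2.97) and Slc7a11 (0.0128 ± 0.0447, and 0.0023 ± 0.0025 without library a). Cdo1 stood far above the rest, and neighbours from Gclc to Gclm lay within their spread. In control SCN the order was Gclc (16.1 ± 2.25), Cdo1 (14.0 ± 2.92), Gclm (12.1 ± 2.61), Gsr (11.5 ± 1.495), Csad (7.925 ± 0.941), Cbs (3.81 ± 0.616), Gss (3.02 ± 0.719), Slc7a11 (1.79 ± 0.476) and Cth (1.16 ± 0.391). There, Gclc to Gsr were neighbours within their spread.

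As a description over the 36 liver libraries, the genes whose log2 CPM was most like that of each member (Pearson r, among genes at a mean of 1 CPM or more, 13840 for Slc7a11 and 13839 for each other member) were read out. They were Osgin1, Rhod and Tmem125 for Gclc (r = 0.85, 0.83 and 0.83), Ung, Mpp1 and Arpp19 for Gss (0.93, 0.92 and 0.92), and Hpx, Anxa2 and Kctd17 for Slc7a11 (0.94, 0.93 and 0.93). For Cbs they were Abcb11, Amt and Cbln3 (0.92, 0.92 and 0.89), and for Cth Zfp839, Pnrc1 and Lnx2 (0.77, 0.75 and 0.73). For Gclm they were Dnajc12, Aox1 and Sh3bgrl2 (0.76, 0.69 and 0.68), for Gsr Slc35f5, Actr2 and Kif21a (0.85, 0.84 and 0.83), for Cdo1 C2cd2, Car8 and Magix (0.83, 0.81 and 0.80), and for Csad Unc13b, Ephx1 and Aox1 (0.72, 0.70 and 0.68). Points share diet, time and library, and genes that respond to diet correlate through it.

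Among the members themselves, deviations were taken from a fit of diet-time group and sex, without a term for sex by diet. A diet effect that differs between the sexes, as called for Csad, therefore stays in these deviations. They were correlated most for Gclc and Gclm in liver (r = 0.73 over 36 libraries, 0.78 without library a). Next came Cbs and Cth (0.62 and 0.62), Gss and Gsr (0.62), Gclm and Csad (0.61, and 0.60 without library a), Gclc and Gss (0.61 and 0.43) and Gss and Csad (0.59 and 0.58). Gss and Cdo1 deviated in opposite directions (-0.77, and -0.61 without library a). The value for Gss and Gsr, 0.62, fell to 0.23 without library a, and that for Gsr and Slc7a11 from 0.54 to 0.18.

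Of other genes of cysteine metabolism, in a list of 14 for its use towards sulfate, hydrogen sulfide and taurine, 11 changed in liver with edgeR, 3 upwards and 8 downwards, with a median of -0.33 log2. Of all liver genes, 46.6% passed in this comparison, 25.3% upwards and 21.2% downwards, with a median of 0.017 log2. The smallest p-values were those of Kyat1, a cysteine conjugate lyase (137 ± 29.1 to 90.9 ± 29.9 CPM, log2 -0.62 ± 0.07), Sqor, which oxidises hydrogen sulfide (144 ± 26.6 to 103 ± 13.2 CPM, log2 -0.47 ± 0.06), and Ethe1, a persulfide dioxygenase (40.5 ± 17.5 to 28.5 ± 8.23 CPM, log2 -0.43 ± 0.08). Of 22 genes of glutathione breakdown and use, 13 changed, 7 upwards and 6 downwards, with a median of 0.05 log2, beside the same 46.6%, 25.3% and 21.2% of all liver genes. Ggt1, which opens extracellular glutathione breakdown, was the only one called past 1 log2, at 3.32 ± 1.12 log2, and its level was very low (0.0141 to 0.0624 CPM on average).

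Of 13 genes of amino acid transport tied to cystine and of the regulators of these genes, 9 changed in liver with edgeR, 8 upwards and 1 downwards (Slc1a2, a glutamate transporter), with a median of 0.22 log2. The background was again 46.6% of all liver genes, with 25.3% upwards and 21.2% downwards. Slc3a2, the heavy chain partner of Slc7a11, held 33.8 ± 5.11 CPM on the control food and 55.3 ± 14.0 CPM on MCD, a rise of 0.70 ± 0.09 log2 (edgeR adjusted p = 5.83e-07). Slc1a5, a carrier of neutral amino acids, rose from 3.48 ± 1.20 to 6.80 ± 2.12 CPM (log2 0.98 ± 0.11, adjusted p = 7.36e-08). Mafk, a small Maf partner of the antioxidant regulators, rose from 13.5 ± 4.08 to 19.0 ± 5.29 CPM (log2 0.49 ± 0.10, adjusted p = 0.000345). In SCN none of the genes measured from these 3 lists (13, 18 and 12) passed with edgeR, where the background was 0.0635%.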

How the data were processed

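Transcript levels of 72 libraries (36 liver, 36 SCN) were read from 1 gene table per tissue of read counts that the authors deposited; the values are whole numbers with unequal library totals and were taken as not normalized. The submitters' processing notes name Trimmomatic, HISAT2, StringTie and DESeq2 and the build GRCm39. Not given in the sources used here are their versions, their roles and the strand setting of the counting. The kit kept strand and selected polyadenylated RNA, per the labels' protocols. The 72 exon-bin count files were not used here. The control CT8 males share a column name in both tables and are called a and b.

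Counts were tested with edgeR 4.0.16 in R 4.3.3 (quasi-likelihood F test, TMM, minimum count 10, robust), with 1 model per tissue (12 diet-time groups plus sex); adjusted p under 0.05 was called. Rhythm was tested with a cosine and a sine of period 24 h over the time means, and its range is from trough to peak. Depth was 52.6 M to 86.7 M counts in liver and 23.3 M to 79.8 M in SCN. The labels do not say that libraries are separate mice, so p-values measure the spread between libraries, which may be technical. Alternatives were other scalings, no filter, DESeq2 1.42.0, limma 3.58.1 voom, a replicate block, left-out libraries and a term for the kind of liver library. All 9 genes are named. Of the 3 pathway lists, genes called in liver with a mean diet effect of at least 1 log2 are named, or the 3 smallest p where none passed. The 9 genes and the lists were chosen with earlier results of these data known. Sequences are from RefSeq tables on GRCm38.p6, another build than the authors', and GENCODE M21 gave exon lengths and overlaps only.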

Additional observations from a re-analysis of the deposited data

Results flagged for a closer look

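The diet effect on Csad in liver differed between the sexes by 2.45 log2 (females minus males, test of the difference itself in edgeR, adjusted p = 0.0128), with all 6 MCD females above all 6 control females. The rhythm of Cbs in liver differed between the diets by 0.88 log2 (edgeR adjusted p = 0.00323), which did not pass without the libraries numbered 1 or 2 (0.83 and 0.90 log2). The diet effect differed between liver and SCN for 5 genes, by 4.81 log2 for Slc7a11, 0.97 for Gss, 0.68 for Gclc, 0.32 for Gsr and -0.25 for Cbs (liver minus SCN, edgeR adjusted p from 2.81e-09 to 0.0101).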

How the results depend on the processing

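Of 5436 values of the 9 genes under the alternatives, 5215 stayed on their side of the threshold, 145 lost a call, 75 gained one and 1 reversed. Of the 5215, 105 called in neither fit changed sign. The reversal was Cbs over the day in liver, at 0.0925 log2 with library totals alone. The following are numbers of the 9 genes called. Over the day in liver, 6 became 3 within the low kind of library, and 3 to 7 with 1 replicate number left out. Calls at single times in liver went from 15 to between 1 and 8 with a replicate number left out, and to between 13 and 21 with 1 library left out, the highest being 21 without library a. The rhythm difference between diets in liver went from 1 to 2 without library a or with a replicate block (a fit that also leaves out libraries a and b, which carry no number), and to 0 or 1 with a number left out. Liver rhythm calls went from 3 to between 1 and 3 on control and from 4 to between 2 and 3 on MCD with a number left out. SCN rhythm calls went from 3 to 1 on control (Gclc and Gss lost) and 2 on MCD (Gss lost) with the replicate block, and to between 0 and 2 on either diet with a number left out. Sex calls went from 0 to 1 in liver with limma voom and from 0 to 1 in SCN with DESeq2. Leaving out number 1 or 2 removes 11 of 36 libraries and number 3 removes 12, all the females. For the other alternatives the cause was not tested. Same-numbered libraries of the diets deviated together little (r from -0.11 to 0.27 over 10 pairs of groups, 1 of them over 0.1). The check used number 1 minus number 2 alone, without CT8, and cannot show whether the numbers pair the samples. Over all genes, DESeq2 called 2060 liver rhythm differences against 986 with edgeR, 741 differences of diet by sex against 359, and 48 SCN diet effects against 10. Limma voom called 19 SCN diet effects. Depth limits Slc7a11 in control liver, where most libraries held a few counts at most.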
